A study of Mus musculus with 2 samples.

Results

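Near matches are places in the mouse genome that resemble the target of a Cas9 guide without being identical to it. Those described here belong to SCS12 and SCS13, the guides that were designed to free the insertion site of the II1 enhancer transgene for long-read sequencing. A near match was a site of the mm10 assembly on chromosomes 1 to 19 or X that was followed by an NGG PAM and differed from the guide by 0 to 5 of its 20 bases. The interval chr2:75250000-75300000, which holds both targets, was left out. This gave 3249 near matches, of 3317 targets and near matches of all 3 guides of the protocol, with 671 for SCS12 and 2578 for SCS13. None of them had fewer than 3 mismatches.

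Yolk sacs of untreated B6CBAF1 embryos at E12.5, from crosses between heterozygous adults, were the source of the genomic DNA. The genotypes were II1TDOM 542 and II1TDOM 320, alleles in which the enhancer with a reporter had been placed in the T-DOM, the regulatory domain on the telomeric side of the Hoxd genes. Each allele had 1 library, so there were no replicates, and p-values compare libraries, not alleles. The 542 library held 4218 alignments of 3658 reads and the 320 library 8424 alignments of 7790 reads, of which 3427 and 7628 alignments had a mapping quality of 30 or more.

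Cas9 is led to DNA by a guide RNA and cuts both strands close to a short motif next to the target, the PAM. Pairing begins beside the PAM, so that mismatches in the adjoining part of the guide, the seed, usually hinder cutting more than mismatches at the other end. In Cas9-targeted nanopore sequencing (nCATS) the ends of the DNA are first blocked, and adapters are then ligated at fresh cuts, where reads therefore begin. After cutting, Cas9 tends to stay on the protospacer side of the break, and reads of a target are known to run mostly from the PAM side.

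The guides are printed 5′ to 3′ with bases 11 to 20, the part next to the PAM, in capitals. The mm10 site of SCS12 is chr2:75260228-75260247 on the plus strand, and that of SCS13 is chr2:75285297-75285316 on the minus strand.
SCS12: attaaaacgtCGGAGACTCA
SCS13: agatcgcagcCACCCCACGA

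A read was counted at a near match if its alignment had a mapping quality of 30 or more and began within 10 bp of the expected break, 3 bp from the PAM. The 542 library had such reads at 15 near matches. Their sequences are shown because they carry the comparison of the mismatches, which are in capitals, and the last 3 letters are the PAM. Coordinates are those of the 20 bases before the PAM. The SCS12 near matches with reads were these 7.
chr17:89570240-89570259, plus strand: attaaaacAtcAgTgactcatgg
chr8:62699471-62699490, plus strand: aAtaaaacAtcAgagactcaagg
chr10:7637919-7637938, minus strand: attaaaGcAtcAgaAactcatgg
chr16:73612840-73612859, minus strand: attaCaaGgtcAgaCactcaagg
chr2:45535132-45535151, plus strand: aCtaaaacCtcAgagactcGggg
chr11:33894613-33894632, minus strand: atGaTaTcTtTggagactcaagg
chr7:81398337-81398356, plus strand: aAtTaaacAtcAgagactAaagg

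The SCS13 near matches with reads were these 8, in the same notation.
chr10:81124168-81124187, plus strand: agCCTgcagccaccccacCaggg
chr14:65222523-65222542, plus strand: aAatcCcagcAaccccaTgatgg
chr5:90159623-90159642, minus strand: agaCcAcaCccaccccacTaagg
chr13:54809050-54809069, minus strand: agGCcTcagTcaccccacAatgg
chr13:105507726-105507745, minus strand: GTGCcgcagccaccccaAgatgg
chr17:68123073-68123092, minus strand: TCTtcAcagcAaccccacgaggg
chr19:58296848-58296867, plus strand: CCTtcCcagccaccccaAgaggg
chr8:121014156-121014175, plus strand: TgTGTgcagccaccccacAatgg

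For contrast, 3 near matches of each guide with no read in either library are shown, taken in order of mismatches and then of chromosome and position. All SCS12 sites shown come from 33 with 4 mismatches and no read, and the last SCS13 site from 105, so they are examples among ties. The first 3 are of SCS12 and the last 3 of SCS13.
chr1:194854545-194854564, minus strand: attaaaaAgAcgTaTactcaagg
chr3:42061477-42061496, minus strand: aCtaaaaAgtcCCagactcaggg
chr3:51606766-51606785, plus strand: attaCaGcAtcTgagactcacgg
chr2:154261479-154261498, plus strand: agatcgcagcAaccAcaTgatgg
chr5:118673691-118673710, minus strand: agaATgcagccaccccaGgatgg
chr1:151757089-151757108, minus strand: agatAgcaTccaccTcGcgatgg

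The 542 library had 29 reads at near matches (95% Poisson interval 19.4 to 41.6), and the 320 library had 0 (0 to 3.69). In the 542 library 15 of 3249 near matches had a read, or 0.462% (95% Clopper-Pearson interval 0.259 to 0.760%). As background, the start of an alignment of this quality fell in 0.00276% of all 21 bp windows of the same chromosomes for the 542 library, and in 0.00609% for the 320 library. Intervals cover counting error only, and sites that share a repeated sequence are not independent. Of the reads of this quality on these chromosomes and outside the target interval, 29 of 3340 lay at near matches in the 542 library, or 0.868% (0.582 to 1.24%). The 320 library had 0 of 7169, which allows a share of up to 0.0418% (p = 3.37e-15, two-sided Fisher's exact test).

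Alignments that passed through near matches were counted as well. The 320 library had 94 alignments that ran across the break position of a near match with 50 bp or more on each side, at 93 near matches, against 20 alignments at 19 near matches in the 542 library. At the 15 near matches with reads, the 542 library had 0 alignments that ran across and the 320 library had 1, at the chr10:81124168-81124187 site. The 320 library also had 0 reads at the SCS12 and SCS13 targets, counted in the same way, against 2 and 6 in the 542 library. The Methods describe a common procedure for both alleles, with the DNA divided between a mix of SCS12 and SCS13 and a mix with SCS14, and a record for each library is not given in the sources used here. Since each allele had 1 library, a difference between alleles and one in library preparation, guides included, cannot be told apart.

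SCS12 near matches held 16 of the 29 reads (95% Poisson interval 9.15 to 26), more than the 2 reads at the exact SCS12 target (0.242 to 7.22), and these intervals did not overlap. The 16 reads are a sum over 7 sites, some with 4 reads, set against a single target. An interval without one of these sites was not computed for SCS12. SCS13 near matches held 13 reads (6.92 to 22.2) and its target 6 (2.20 to 13.1), with overlapping intervals. Without the chr17:68123073-68123092 site, 7 reads were left at SCS13 near matches. By site, 7 of 671 SCS12 near matches had a read (1.04%, 0.420 to 2.14%) and 8 of 2578 SCS13 near matches (0.310%, 0.134 to 0.611%). These intervals overlapped as well.

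Reads were uneven among the 15 sites, with 18 reads at 4 sites and 1 read at each of the other 11, which were named after their values were seen. The site with the most reads was an SCS13 near match with 5 mismatches, chr17:68123073-68123092 in an intron of the lincRNA AC151280.3, which had 6 reads (2.20 to 13.1) in the 542 library and 0 in the 320 library. It differed from the guide by A1T, G2C, A3T, G6A and C11A. Each of these gives the base of the guide, its position from 1 at the guide's 5′ end, and the base of the site. The exact SCS13 target had the same number of reads in this library.

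The other 3 sites with several reads were SCS12 near matches with 4 reads each in the 542 library (1.09 to 10.2) and 0 in the 320 library. The site chr17:89570240-89570259 lay in no annotated gene and carried G9A, G12A and A14T. The site chr8:62699471-62699490 lay in an intron of the lincRNA Gm45459 and carried T2A, G9A and G12A. The site chr10:7637919-7637938 lay in an untranslated part of Pcmt1, which encodes a methyltransferase that repairs damaged proteins, and carried A7G, G9A, G12A and G15A. These sites shared G9A and G12A, and their intervals overlapped that of the SCS12 target.

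The SCS12 sites with reads resembled each other in their mismatches. G12A was present in 6 of the 7, against 170 of all 671 SCS12 near matches (25.3%), and G9A in 4 of the 7, against 113 (16.8%). Both together were carried by 29 SCS12 near matches, of which 4 had a read (13.8%, 3.89 to 31.7%). With 3 or 4 mismatches in all, 3 of these 29 sites remained, and each of the 3 had 4 reads. With 5 mismatches, 1 of 26 had a read (3.85%, 0.0973 to 19.6%). Among the 8 SCS13 sites with reads, T4C was present in 4 and A3T in 3, against 2.21% and 9.39% of all SCS13 near matches. The 5 most common SCS13 sequences, at 1529 of 2578 sites, carried neither substitution, which lowers these 2 shares of all near matches. Shares without these copies were not computed. These substitutions of both guides were singled out after the reads had been seen, so the shares are a description.

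G-to-A and T-to-C changes leave a guide RNA able to form a wobble pair with the target strand. Such changes made up 21 of the 65 mismatches of the 15 sites with reads (32.3%) and 2547 of the 16093 mismatches of all near matches (15.8%). Among SCS12 sites with reads they were 12 of 28 mismatches (42.9%), against 16.3% for all SCS12 near matches. Of these 12, 6 were the G12A and 4 the G9A described above, so the share is not a separate feature of these sites. For SCS13 they were 9 of 37 (24.3%), against 15.7%, and 4 of these 9 were T4C. Mismatches of 1 site are not independent, and no test was made.

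The share of near matches with a read in the 542 library fell with the number of mismatches. It was 2 of 4 with 3 mismatches (50%, 6.76 to 93.2%), 6 of 144 with 4 (4.17%, 1.54 to 8.85%) and 7 of 3101 with 5 (0.226%, 0.0908 to 0.465%). The intervals for 4 and 5 mismatches did not overlap, while those for 3 and 4 did. When each distinct sequence of 23 bases was counted once, the share with 5 mismatches was 0.575%. Just outside the limit, 6 of 45062 sites with 6 mismatches had a read (0.0133%, 0.00489 to 0.0290%) in the 542 library, and 5 in the 320 library (0.0111%, 0.00360 to 0.0259%). These sites held 12 reads in the 542 library and 5 in the deeper 320 library. A repeated SCS13 sequence made up 29001 of these sites and held 2 of the 6 and 2 of the 5. Without it, 4 of 16061 had a read in the 542 library (0.0249%, 0.00679 to 0.0638%) and 3 in the 320 library (0.0187%, 0.00385 to 0.0546%). The reads themselves were spread more evenly, with 8, 9 and 12 reads at sites with 3, 4 and 5 mismatches.

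The closest near matches of each guide were few. Both SCS12 near matches with 3 mismatches had reads, 4 each, whereas both SCS13 near matches with 3 mismatches had 0. With 2 sites for each guide the shares were 100% (15.8 to 100%) and 0% (0 to 84.2%), so a difference was not detectable at this depth. The SCS13 sites were chr2:154261479-154261498, in an intron of Bpifb9a, with C11A, C15A and C18T, and chr5:118673691-118673710, in an intron of Med13l, a gene for a subunit of the Mediator kinase module. With 4 mismatches, 3 of 36 SCS12 near matches had a read (8.33%, 1.75 to 22.5%) and 3 of 108 SCS13 near matches (2.78%, 0.577 to 7.90%). With 5, the counts were 2 of 633 (0.316%, 0.0383 to 1.14%) and 5 of 2468 (0.203%, 0.0658 to 0.472%).

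The sites with reads had few mismatches in bases 11 to 20 as a whole, though not at each base. All 15 sites with reads had 0 to 2 mismatches in this part, and these were 15 of 712 such near matches (2.11%, 1.18 to 3.45%). Near matches with 3 or more mismatches in bases 11 to 20 numbered 2537 and had 0 reads, which allows a share of up to 0.118% (interval 0 to 0.145%). For SCS13 the shares were 8 of 397 (2.02%, 0.874 to 3.93%) and 0 of 2181 (0 to 0.169%), with intervals that did not overlap. For SCS12 they were 7 of 315 (2.22%, 0.898 to 4.52%) and 0 of 356 (0 to 1.03%), with intervals that overlapped slightly. Among sites with 0 to 2 such mismatches and 4 in all, the share was 12% for SCS12 (2.55 to 31.2%) and 4.55% for SCS13 (0.947 to 12.7%). With 5 in all the order was the opposite, 0.694% (0.0842 to 2.49%) and 1.52% (0.494 to 3.50%), and the intervals overlapped in both cases. Within the class of 0 to 2, 9 of 136 sites of both guides with 1 such mismatch had a read (6.62%, 3.07 to 12.2%). With 2 it was 6 of 567 (1.06%, 0.389 to 2.29%), without overlap. With 0 it was 0 of 9 (0 to 33.6%). For SCS13 with 5 in all, the counts with 1 and 2 such mismatches were 5 of 60 (2.76 to 18.4%) and 0 of 265 (0 to 1.38%). The intervals overlapped for SCS12 with 5 in all, 1 of 54 (0.0469 to 9.89%) and 1 of 230 (0.0110 to 2.40%). They also overlapped for SCS13 with 4 in all, 2 of 14 (1.78 to 42.8%) and 1 of 52 (0.0487 to 10.3%). For SCS12 with 4 in all the order was the opposite, 0 of 6 and 3 of 19, with overlapping intervals.

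At a fixed number of mismatches the shares went the same way, with less precision and without separate intervals in each class or guide. With 5 mismatches, 7 of 618 near matches with 0 to 2 in bases 11 to 20 had a read (1.13%, 0.457 to 2.32%), and 0 of 2483 with 3 or more (0 to 0.148%). With each distinct sequence counted once, the counts were 7 of 554 (1.26%) and 0 of 664. Repeated copies thus narrow the interval of the 2483 sites. No intervals were computed for the counts of distinct sequences, so these counts do not show a separation without the copies. By guide, all copies counted, SCS13 sites with 5 mismatches gave 5 of 330 (0.494 to 3.50%) and 0 of 2138 (0 to 0.172%), without overlap. For SCS12 they gave 2 of 288 (0.0842 to 2.49%) and 0 of 345 (0 to 1.06%), with overlap. With 4 mismatches, the counts for both guides were 6 of 91 (6.59%, 2.46 to 13.8%) and 0 of 53 (0 to 6.72%), and these intervals overlapped. Of the mismatches in SCS13 sites with reads, 9 of 37 lay in bases 11 to 20 (24.3%), against 58.8% in all SCS13 near matches, most of which were copies of repeated sequences. For SCS12 the values were closer, with 12 of 28 (42.9%) against 52%. Base 19, close to the PAM, was mismatched in 4 of the 8 SCS13 sites with reads, against 7.99% of all SCS13 near matches, and in 1 of the 7 SCS12 sites, against 30.1%. The most common repeated SCS13 sequences had no mismatch at base 19, which lowers the 7.99%.

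Most SCS13 near matches were copies of a few repeated sequences. The 2578 sites had 666 distinct sequences of 23 bases, and the 5 most common of these accounted for 1529 sites (59.3%), all in the soft-masked, that is repetitive, part of the reference. The most common was present at 932 sites on 20 chromosomes, with G2A, G6C, C11A, C15A and C18T, and had 0 reads in either library, which allows a share of up to 0.322% of its sites. Alignments that ran across it numbered 5 in the 542 library and 25 in the 320 library. Near matches with these substitutions except C15A numbered 4, of which 1 had a read, chr14:65222523-65222542 in an intron of Fzd3, a Wnt receptor gene. Near matches that lacked only C18T in place of C15A numbered 13, those that lacked only G2A 19, only C11A 5 and only G6C 2, all with 0 reads. The interval for 1 of 4 sites, 0.631 to 80.6%, overlapped those of these 4 groups, and the Fzd3 site was singled out after its read had been seen. SCS12 had no such family, with 655 distinct sequences at its 671 sites.

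Outside repeats the intervals by position separated for the pooled guides but not for each guide. Of near matches that were not soft-masked, 10 of 466 with 0 to 2 mismatches in bases 11 to 20 had a read (2.15%, 1.03 to 3.91%), against 0 of 389 with 3 or more (0 to 0.944%). For SCS12 alone they were 6 of 247 (2.43%, 0.897 to 5.21%) and 0 of 228 (0 to 1.60%), and for SCS13 alone 4 of 219 (1.83%, 0.500 to 4.61%) and 0 of 161 (0 to 2.27%), with overlapping intervals in each guide. Among near matches with 0 to 2 mismatches in bases 11 to 20, soft-masked sites had a read about as often, at 5 of 246 (2.03%, 0.663 to 4.68%).

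By PAM, a read was found at 5 of 468 near matches with AGG (1.07%, 0.348 to 2.48%), 4 of 375 with GGG (1.07%, 0.291 to 2.71%) and 6 of 2331 with TGG (0.257%, 0.0945 to 0.559%). CGG was rare, and 0 of its 75 near matches had a read, which allows up to 4%. The low share with TGG came with the repeated SCS13 sequences, and with each distinct sequence counted once it was 1.24%. Among near matches with 0 to 2 mismatches in bases 11 to 20, the shares were 2.26% for AGG (5 of 221), 2.26% for GGG (4 of 177) and 2.08% for TGG (6 of 289). CGG had 0 of 25 there, up to 12%. No difference between the 4 PAMs was therefore detectable.

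Sites of SCS12 and SCS13 without an NGG PAM had no reads within the same limit on mismatches. Reads were found at 0 of 2293 sites with NAG (up to 0.131%) and 0 of 17716 with any other PAM (up to 0.0169%), in either library. Of these 20009 sites, 9757 had 0 to 2 mismatches in bases 11 to 20, where 0 reads allow a share of up to 0.0307% (interval 0 to 0.0378%), against the 2.11% of near matches with NGG. Sites with 2 or 3 mismatches numbered 67 in this group, and the limit for them was 4.48%. SCS14, the guide within the transgene, had 66 near matches with NGG and 0 reads in either library (up to 4.55%), so a share like that of the other guides was within its limit. Its 1019 sites with 5 mismatches and neither NGG nor NAG held 1 read in each library.

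Reads at near matches began close to the expected break. Of the 29 reads, 19 began exactly at it and 25 within 1 bp, and the largest distance was 4 bp. Between 11 and 50 bp from a break, the 542 library had 0 reads and the 320 library had 1, at 39 bp. Every one of the 29 alignments had a mapping quality of 60 and was the only one of its read. Their lengths ran from 255 to 30826 bp with a median of 3782 bp, against a median of 2220 bp for the other alignments of the 542 library with a mapping quality of 30 or more.

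Reads left near matches in both directions. On the PAM side were 13 of the 29 reads (44.8%, 26.4 to 64.3%), and the other 16 ran from the protospacer side. At the targets of the same library, all 8 reads ran from the PAM side (63.1 to 100%), and the intervals overlapped by little. These intervals treat reads as independent, although several reads shared a near match and the 8 reads came from only the SCS12 and SCS13 targets. With 1 value per near match, that of its majority side, the PAM side had 46.7% of 15. Counted by read, the shares at near matches were alike for SCS12 (7 of 16, 43.8%) and SCS13 (6 of 13, 46.2%). Each of the 4 sites with several reads had reads in both directions, with 2 of 6 on the PAM side at chr17:68123073-68123092. At the 3 SCS12 sites with 4 reads, 1 was on the PAM side at chr17:89570240-89570259, 3 at chr8:62699471-62699490 and 1 at chr10:7637919-7637938.

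The near matches with reads were spread over 11 chromosomes and showed no common position relative to genes. In the GENCODE annotation, 9 of the 15 lay in a gene (60%, 32.3 to 83.7%), against 54.6% of all near matches. Introns of protein-coding genes held 5, introns of lincRNAs 2 and untranslated parts of protein-coding genes 2, which were those of Pcmt1 and of Map2k2, a kinase gene of the MAP kinase pathway. The intronic sites included chr11:33894613-33894632 in Kcnip1, which encodes a potassium channel partner, and chr7:81398337-81398356 in Cpeb1, which encodes a regulator of mRNA translation. A further one was chr19:58296848-58296867 in Gfra1, a gene for a receptor of glial neurotrophic factor. The remaining 6 lay between genes, the closest of them to a protein-coding gene being chr13:54809050-54809069, 12276 bp from Tspan17.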

How the data were processed

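Bases had been called by the authors (Guppy 5.0.16), and the reads mapped to mm10 (minimap2 2.15), reduced to primary alignments (samtools 1.10) and written as tables (bedtools 2.27.1). Some reads nevertheless have several alignments in the tables. The score in the deposited tables is the mapping quality, and it was used with start, end, read name and strand. Read sequences and alignment flags were not in the tables, so strain variants at the sites were not tested. SCS12, SCS13 and SCS14 were searched on both strands of GRCm38, without gaps, in Python 3.11.15 with numpy 2.4.6, numba 0.67.0, pandas 2.3.3 and scipy 1.17.1, and the search and the counting were tested on simulated data. Of the chromosomes compared, 21 for the 542 library and 22 for the 320 library, 0 had an alignment that ended beyond their length in that reference. Unplaced sequences were not compared. The start of an alignment was its end at the 5′ end of the read.

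Libraries were grouped by genotype. Shares have 95% Clopper-Pearson intervals, counts 95% Poisson intervals, and a count of 0 is given with the share that 3 counts would make. Reads of the libraries were compared by a two-sided Fisher's exact test. Sites were not tested against each other. Alternatives changed the mapping quality, the window, the mismatches, the PAM, the alignments used and the chromosomes. Members and lists were chosen with earlier results of these data known. The rule for named sites took every site with 2 or more reads, every near match with up to 3 mismatches and a read, and for each guide 3 near matches without a read, by fewest mismatches with ties in order of chromosome and position. Further sites were chosen once their reads were known.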

Additional observations from a re-analysis of the deposited data

Results flagged for a closer look

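Sites just beyond the limit of 5 mismatches were looked at because their reads numbered more than the 3 that a count of 0 allows. SCS13 sites with NGG and 6 mismatches held 12 reads in the 542 library, at 6 of 39520 sites, and 4 in the 320 library. In the 542 library 10 of the 12 reads lay at 4 of the 1299 sites with 0 to 2 mismatches in bases 11 to 20 (0.308%, 95% Clopper-Pearson interval 0.0840 to 0.787%). The other 2 reads lay at 2 of the 38221 sites with 3 or more (0.00523%, 0.000634 to 0.0189%). The 4 reads of the 320 library lay at sites with 3 or more such mismatches.

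SCS12 sites with 6 mismatches and neither NGG nor NAG held 10 reads in the 320 library, at 0.0107% of 93530 sites, and 1 read in the 542 library. The corresponding SCS13 sites held 8 reads in the 542 library, at 0.00984% of 81306 sites, and 5 in the 320 library, at 0.00615%. These shares stand beside a background of 0.00276% of 21 bp windows in the 542 library and 0.00609% in the 320 library.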

How the results depend on the processing

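Of 202 values under other settings, 192 were classed as close to the reported ones and 0 changed direction. Those 192 include the difference between the libraries in the share of reads, which was 0.509% with at most 4 mismatches against 0.868%. The test between the libraries stayed on the same side of its threshold in the 12 alternatives for which it was computed. It was not computed for the settings chosen after seeing the data. With at most 4 mismatches the 542 library had 17 reads at 8 places, of which 3 reads were at SCS13 near matches, since fewer sites were counted. With up to 6 mismatches it had 25 reads at SCS13 sites, and the 320 library had 5 reads in all. Within 50 bp of the break the 320 library had 1 read. Further settings were chosen after seeing the data. With the far end of the alignment in place of its start, 0 reads were left in the 542 library, and without the place with the most reads 7 were left at SCS13 near matches. With each distinct sequence counted once, the share with a read was 0.575% for 5 mismatches and 1.24% for TGG, since repeated sequences then count once. Unplaced sequences of the reference were not run, because their names could not be matched, and chromosomes Y and M were added in their place. No paired analysis was possible because each allele had 1 library, and leaving out a library was not possible either. The low depth of both libraries limits what single sites show: 1 read has a 95% Poisson interval of 0.0253 to 5.57.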

Other observations

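Of the SCS13 sites with 6 mismatches, those with reads and 0 to 2 mismatches in bases 11 to 20 are shown with their mismatches in capitals, and coordinates are those of the 20 bases before the PAM. They lie outside the limit of the near matches and were chosen after their values were seen.
chr12:46603913-46603932, minus strand: TATCcAcagccaccccacTatgg
chr1:172016079-172016098, minus strand: TCCtTgcagTTaccccacgaagg
chr10:86299959-86299978, plus strand: TTaCcAcagccaTcccacAaagg
chr9:42195190-42195209, plus strand: aTGATgAagccaccccacTaagg

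The site on chromosome 12, between genes and 90602 bp from Nova1, had 5 reads in the 542 library, 2 of them on the PAM side, and all 5 began within 2 bp of the expected break. The site on chromosome 1, in an intron of the planar cell polarity gene Vangl2, had 2 reads, as did that on chromosome 10 in an intron of Syn3. The site on chromosome 9, in an intron of the lincRNA 4930546K05Rik, had 1. The 320 library had 0 reads at these 4 sites. SCS12 had 5542 sites with NGG and 6 mismatches, with 0 reads in the 542 library (up to 0.0541%) and 1 in the 320 library.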
